A study of Mus musculus with 8 samples.

Results

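The nuclear genes of the mitochondrial respiratory chain were followed through the chromatin accessibility of the mouse lens. They were taken as the protein-coding genes of the RefSeq annotation of GRCm38 (the assembly called mm10) whose symbols name subunits of complex I (Nduf followed by a, b, c, s or v and a number), complex II (Sdha to Sdhd), complex III (Uqcr), complex IV (Cox4 to Cox8) or complex V, the ATP synthase (Atp5). The rule found 87 of 21774 protein-coding genes, and 86 of these had a curated transcript, of 21000 such genes. There were 39 genes of complex I, 4 of complex II, 8 of complex III, 18 of complex IV and 17 of complex V. The remaining gene, Ndufb4b, has predicted transcripts only and had no peak at its promoter or in its gene body in any list.

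The study used ATAC-seq, in which a transposase cuts accessible DNA and tags it for sequencing, on epithelium and fibers microdissected from the lens of CD1 mice at E14.5 (embryonic) and P0.5 (newborn). Each of the 4 groups had 2 libraries, 8 in all, and no treatment or mutant allele is named for any of them. The study's methods give more cells per sample at P0.5 than at E14.5, and at P0.5 more for epithelium than for fibers. Cell input thus cannot be told apart from stage, nor from tissue at P0.5, in the comparisons below. The paper calls the libraries of a group biological replicates and used several lenses per sample. The labels do not say whether the libraries of a group came from separate animals. For each group the authors deposited 1 list of peaks, called on both libraries together. A list gives each peak with its borders, its summit, its fold enrichment over a background, and its p and q values as −log10. Reads and values per library are absent from the lists, so the depth per library is not in the files. No value below has an error between replicates, no test between groups was possible, and differences between lists describe these 4 lists. Intervals printed with a median are 95% intervals over genes, which are not replicates of a condition.

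Complexes I, III and IV pass electrons from NADH towards oxygen and pump protons across the inner mitochondrial membrane, complex II feeds in electrons from succinate, and complex V uses the proton gradient to make ATP. Most subunits are encoded in the nucleus and a few in the mitochondrial genome. Promoters of the nuclear subunits are known for sites of the factors NRF1, GABP (an ETS factor), YY1 and SP1. Lens epithelium keeps its mitochondria, whereas fibers lose mitochondria, nuclei and other organelles as they mature, and much of the energy of the lens comes from glycolysis.

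Promoter sequences show which letters these start sites share. The letters were searched on both strands. Windows from 250 bases before to 50 after a curated start site (RefSeq, GRCm38.p6) were found for 69 of the genes, with 72 windows. The NRF1 letters GCGCATGC were present in 10 windows (13.9%), compared with 3.66% of the 20315 windows of all protein-coding genes. The ETS letters CCGGAAG were present in 17 windows (23.6%, against 11.9%), the YY1 letters AAGATGGC in 10 (13.9%, against 3.13%) and the SP1 letters GGGCGG in 28 (38.9%, against 47.6%). At least 1 of the NRF1, ETS and YY1 words stood in 31 windows (43.1%, against 17.2% of all windows). The share with at least 1 word was higher in the other nuclear gene sets of mitochondria and the ribosome, with 49.4% for cytosolic ribosomal proteins, 52.1% for mitochondrial ribosomal proteins and 57.8% for assembly factors and cytochrome c. For NRF1 alone these shares were 3.896%, 11.3% and 11.1%, below that of the respiratory chain genes, and for YY1 alone 10.4%, 16.9% and 13.3%. They were above those of the respiratory chain genes for ETS alone, at 35.1%, 35.2% and 42.2%, and for SP1 alone, at 58.4%, 49.3% and 80.0%. Promoters of genes with a peak in every list held these words more often than promoters in general. Among the 13037 windows of all such genes the shares were 5.14% for NRF1, 16.5% for ETS, 4.17% for YY1 and 65.1% for SP1. Median GC content was 57.3% in the respiratory chain windows and 57.0% in all windows, while the median ratio of observed to expected CpG was 0.801 and 0.588. No test was made of these shares, and a match of letters does not show that a factor was bound.

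The 150 bases before the start site are printed for 10 genes, 5′ to 3′ on the strand of the gene, with matched letters in capitals. Sdhb, Ndufa6 and Atp5g2 are shown for the NRF1 word beside some of the highest-ranked or widest promoter peaks, Cox6a1 and Cox6b1 for the ETS word in housekeeping subunits of complex IV, and Cox8a with Cox8b and Cox7b with Cox7b2 as ubiquitous and tissue-restricted isoforms. Cox7a1, the heart and muscle isoform, closes the set. Most other genes with a window and one of the highest-ranked or widest promoter peaks had no NRF1 word, among them Ndufv1, Ndufb5, Atp5g1 and Ndufa13. The NRF1 word read on the other strand is GCATGCGC, the ETS word CTTCCGG and the SP1 word CCGCCC.
Sdhb: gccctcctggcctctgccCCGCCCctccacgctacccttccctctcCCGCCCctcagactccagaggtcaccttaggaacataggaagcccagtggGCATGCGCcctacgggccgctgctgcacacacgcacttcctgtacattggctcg
Ndufa6: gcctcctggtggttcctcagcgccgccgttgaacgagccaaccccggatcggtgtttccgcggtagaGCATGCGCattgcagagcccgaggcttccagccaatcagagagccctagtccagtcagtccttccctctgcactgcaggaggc
Atp5g2: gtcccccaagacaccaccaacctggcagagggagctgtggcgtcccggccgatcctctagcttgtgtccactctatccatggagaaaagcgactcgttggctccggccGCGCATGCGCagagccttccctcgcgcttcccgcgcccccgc
Cox6a1: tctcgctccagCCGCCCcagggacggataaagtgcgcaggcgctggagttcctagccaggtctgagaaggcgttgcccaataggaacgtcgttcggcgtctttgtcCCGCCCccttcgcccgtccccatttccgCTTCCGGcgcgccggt
Cox6b1: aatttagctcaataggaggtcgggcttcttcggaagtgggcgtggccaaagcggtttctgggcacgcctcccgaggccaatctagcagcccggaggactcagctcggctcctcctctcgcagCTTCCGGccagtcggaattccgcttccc
Cox8a: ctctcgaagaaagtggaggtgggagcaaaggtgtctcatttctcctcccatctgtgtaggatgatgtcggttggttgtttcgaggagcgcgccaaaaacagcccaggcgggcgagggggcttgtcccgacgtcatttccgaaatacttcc
Cox8b: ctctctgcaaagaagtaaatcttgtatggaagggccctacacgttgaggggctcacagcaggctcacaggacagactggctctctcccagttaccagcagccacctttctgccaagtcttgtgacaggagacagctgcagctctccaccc
Cox7b: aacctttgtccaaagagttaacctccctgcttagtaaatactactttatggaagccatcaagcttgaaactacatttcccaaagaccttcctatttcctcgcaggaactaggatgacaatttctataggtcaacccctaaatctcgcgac
Cox7b2: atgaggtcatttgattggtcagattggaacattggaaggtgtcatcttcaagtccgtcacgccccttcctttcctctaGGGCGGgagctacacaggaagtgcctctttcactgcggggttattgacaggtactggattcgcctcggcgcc
Cox7a1: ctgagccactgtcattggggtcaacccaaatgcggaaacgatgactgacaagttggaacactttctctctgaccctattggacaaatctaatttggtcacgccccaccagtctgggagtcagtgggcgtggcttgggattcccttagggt
These windows lie at chr4:140961121-140961270 (plus strand), chr15:82354292-82354441 (minus), chr15:102671048-102671197 (minus), chr5:115348959-115349108 (minus), chr7:30626115-30626264 (minus), chr19:7217617-7217766 (minus), chr7:140900447-140900596 (minus), chrX:106015550-106015699 (plus), chr5:71548206-71548355 (minus) and chr7:30184021-30184170 (plus) of GRCm38. No annotated transcript overlaps them. In Atp5g2 the NRF1 word and its reverse overlap in a single run. The CpG ratio over the whole window was 1.08 for Cox6a1, 0.571 for Sdhb, 0.564 for Cox7b2, 0.368 for Cox7b, 0.333 for Cox7a1 and 0.115 for Cox8b, and 0.842 for Cox8a and 0.807 for Cox6b1. Of the windows of restricted forms 0 of 4 were above 0.6, against 86.8% of the windows of the other respiratory chain genes. Among the ubiquitous forms listed here Cox7b was the one below 0.6. Of the 8 tissue-restricted isoforms, 4 had a window, and 0 of these 4 held an NRF1, ETS or YY1 word.

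A promoter peak was a peak that overlapped the 2 kb on either side of a curated transcription start site by at least 1 bp. Where there were several, the one with the highest fold enrichment stood for the gene. Nearly all respiratory chain genes had one. In embryonic epithelium 82 of 86 genes (95.3%) had a promoter peak, while 70.2% of all 21000 protein-coding genes did. In embryonic fibers there were 83 (96.5%, against 71.1% of all genes), in newborn epithelium 80 (93.0%, against 66.9%) and in newborn fibers 78 (90.7%, against 64.6%). A promoter peak in all 4 lists was found for 78 genes (90.7%), compared with 60.6% of all genes. All genes include many that are silent in a given tissue. The share was close to that of other housekeeping groups, since 73 of 78 genes of mitochondrial ribosomal proteins (93.6%) and 77 of 86 genes of cytosolic ribosomal proteins (89.5%) had a promoter peak in all 4 lists.

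**Figure D1:**
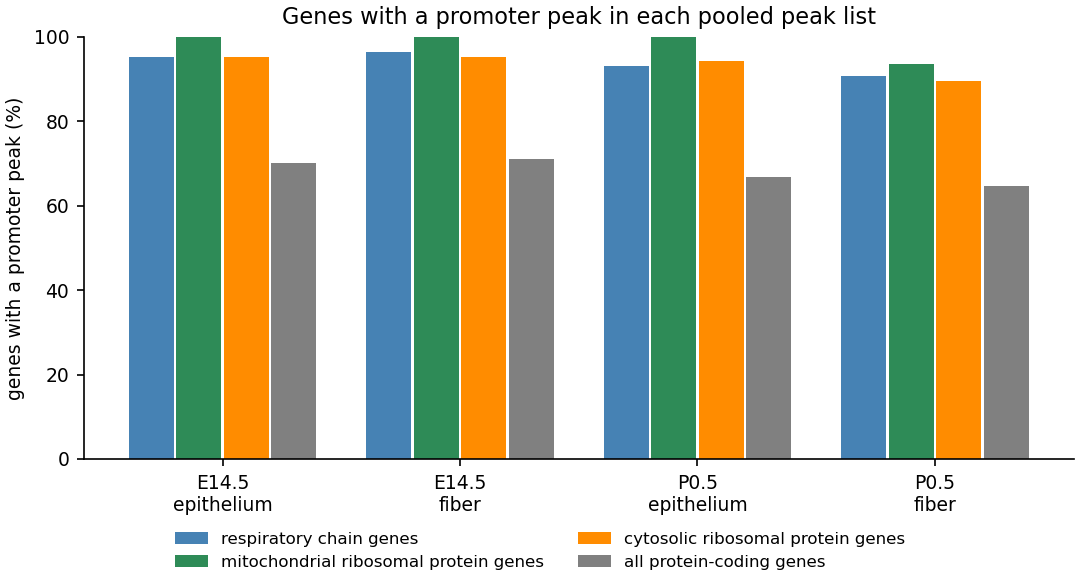
Share of genes, in percent, with a promoter peak in each of the 4 pooled lists, for the 86 respiratory chain genes, 2 groups of ribosomal protein genes and all 21000 protein-coding genes. The respiratory chain bars stand between 90.7% and 96.5% and the bars of all genes between 64.6% and 71.1%.

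Every gene of complexes II and III had a promoter peak in each list, as did 38 of 39 genes of complex I and 16 of 17 of complex V. In complex IV, cytochrome c oxidase, this held for 12 of 18 genes. Of the 8 genes that lacked a peak in at least 1 list, 4 are tissue-restricted isoforms of complex IV. The others were Ndufb4c of complex I, Cox6b1 and Cox7b, the widely expressed forms of their subunits, and Atp5l, which encodes subunit g of the ATP synthase. Ndufb4c, Cox7b2 and Cox8c had no promoter peak in any list.

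Few of the genes were called in one group and not in another. Between tissues at E14.5, 0 genes had a promoter peak in epithelium and not in fibers (1.59% of all genes), and 1 gene, Cox8b, had one in fibers and not in epithelium (2.5% of all genes). At P0.5, Atp5l and Cox6b1 were called in epithelium and not in fibers (5.84% of all genes), and 0 genes the other way (3.51%). Between stages in epithelium, Cox6a2 and Cox7b were called at E14.5 and not at P0.5 (4.31%), and 0 genes at P0.5 and not at E14.5 (1.0%). In fibers, Atp5l, Cox6a2, Cox6b1, Cox7b and Cox8b were called at E14.5 and not at P0.5 (8.28%), and 0 genes only at P0.5 (1.72%). In each of these comparisons the share of the respiratory chain genes was below that of all genes.

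Where a promoter peak was absent, the nearest peak of that list lay 2762 to 109622 bp from the start site. In newborn fibers it lay 37637 bp from the start site of Atp5l (chr9:44913248-44920742) and 23815 bp from that of Cox6b1 (chr7:30616971-30626114). For Cox7b (chrX:106015700-106022450) it lay 3655 bp away in newborn epithelium and 3810 bp away in newborn fibers. The single Cox8b peak, in embryonic fibers, was 176 bp wide and its summit lay 507 bp upstream of the start.

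Peaks were ranked by fold enrichment within their list, and a rank was divided by the number of peaks in the list and written as a percent, so that a low percent marks a strong peak. Peaks with equal fold enrichment share the best rank among them. The lists held 100003 peaks in embryonic epithelium, 123743 in embryonic fibers, 58592 in newborn epithelium and 62995 in newborn fibers. Fold enrichment had 371, 506, 169 and 102 distinct values in the same order, so ranks were coarse at P0.5, where several genes share a rank. The largest tie held 22.1% of the newborn fiber list and 9.57% to 11% of the other lists.

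The promoter peaks of the respiratory chain genes ranked high in each list, and at E14.5 their median stood somewhat higher than that of genes in general. The median rank percent was 5.62% in embryonic epithelium (interval 4.09% to 6.68%), 4.36% in embryonic fibers (3.18% to 4.85%), 11.8% in newborn epithelium (8.70% to 15.1%) and 8.49% in newborn fibers (6.94% to 14.0%). Over all genes with a promoter peak the medians were 7.68%, 6.10%, 12.8% and 10.3%. The interval of the respiratory chain genes lay below the median of all genes in both E14.5 lists and held it in both P0.5 lists. Of the genes with a promoter peak, 57 of 82, 59 of 83, 44 of 80 and 44 of 78 stood higher than the median of all genes, in the same order of lists. The q value was under 0.001 for every promoter peak of these genes in 3 lists and for 75 of 78 in newborn fibers, close to the shares of all promoter peaks, which were 98.8%, 98.5%, 98.6% and 90.6%.

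**Figure D2:**
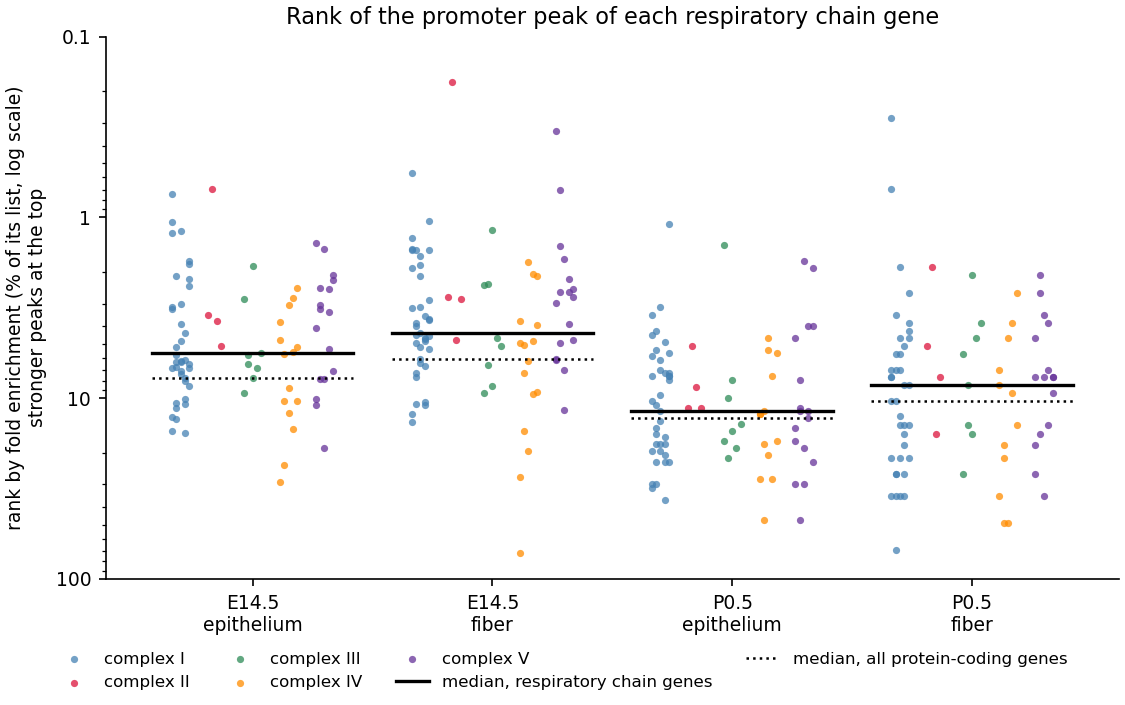
Rank by fold enrichment of the promoter peak of each respiratory chain gene, as a percent of its list on a log axis with strong peaks at the top, by list and complex. Points are genes, solid lines the medians of these genes (5.62%, 4.36%, 11.8% and 8.49% from left to right) and dotted lines the medians of all protein-coding genes. The points of every complex spread over a wide range in each list.

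The medians of the complexes differed within each list, with wide intervals. In embryonic epithelium the median rank percent was 6.26% for complex I, 3.58% for complex II, 6.08% for complex III, 5.66% for complex IV and 3.32% for complex V. In embryonic fibers the medians in the same order were 4.16%, 2.78%, 4.88%, 5.67% and 2.74%. In newborn epithelium they were 10.6%, 9.99%, 14.52%, 12.3% and 11.8%, and in newborn fibers 9.40%, 6.38%, 7.09%, 11.7% and 7.65%. Complex II stood at the lowest percent in both P0.5 lists and complex V in both E14.5 lists, but the intervals of the complexes overlapped in each list.

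Complex I oxidizes NADH. Its highest-ranked promoter peak in embryonic epithelium was that of Ndufv1, the subunit that binds NADH and flavin, at rank 746 of the list (0.746%). Ndufv1 stood at 1.52% in embryonic fibers, 7.57% in newborn epithelium and 6.94% in newborn fibers. Ndufb5, an accessory subunit of the membrane arm, had rank 178 in newborn fibers (0.283%), the highest of all respiratory chain genes there, and stood at 1.06% in embryonic epithelium, 0.566% in embryonic fibers and 4.44% in newborn epithelium. The Ndufb5 peak of newborn fibers (chr3:32736347-32737459) also covered the start site of Mrpl47, a gene of the mitochondrial ribosome that starts 308 bp away on the other strand. Ndufa6, whose NRF1 word is printed above, stood at 1.22%, 1.91%, 3.44% and 0.697% in the order embryonic epithelium, embryonic fibers, newborn epithelium and newborn fibers. Ndufa5 had the highest rank of the respiratory chain genes in newborn epithelium, 636 (1.09%), and stood at 1.80%, 2.85% and 2.61% in the embryonic epithelium, embryonic fiber and newborn fiber lists. Ndufa5, Ndufa6 and Ndufb5 thus kept strong peaks in every list.

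At the other end, Ndufc2, an accessory subunit of the membrane arm, stood at 13.0% in embryonic epithelium, 7.21% in embryonic fibers, 29.6% in newborn epithelium and 69.2% in newborn fibers. Its peak narrowed from 1156 bp in embryonic fibers to 161 bp in newborn fibers, and the summit lay 55 bp after the start in the first and 249 bp after it in the second. Ndufb4c (chr15:73809449-73809933) had no promoter peak, and the nearest peak was 8557 bp away in embryonic fibers and 17114 to 17717 bp away in the other lists.

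Complex II, succinate dehydrogenase, also belongs to the citric acid cycle. Sdhb, its iron–sulfur subunit, had the highest-ranked promoter peak of all respiratory chain genes in both E14.5 lists, at rank 697 in epithelium (0.697%) and rank 221 in fibers (0.179%). It stood at 5.12% in newborn epithelium and 1.87% in newborn fibers. The Sdhb peak of embryonic fibers (chr4:140960673-140962260) was 1588 bp wide, with its summit 13 bp before the start site. Sdha, the flavin-containing catalytic subunit, stood at 3.44%, 2.74%, 11.3% and 5.11% in the order embryonic epithelium, embryonic fibers, newborn epithelium and newborn fibers. For Sdhc, a membrane anchor, the values were 3.73%, 4.73%, 8.70% and 15.7%, and for the other anchor, Sdhd, 5.15%, 2.81%, 11.3% and 7.65%. Sdha, Sdhb and Sdhd stood at a lower percent in fibers than in epithelium at both stages, and Sdhc at a higher percent in fibers at both.

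Complex III passes electrons to cytochrome c. Uqcrfs1, the Rieske iron–sulfur protein, stood at 2.83% in embryonic epithelium, 2.37% in embryonic fibers, 1.41% in newborn epithelium and 5.69% in newborn fibers. Its rank of 827 in newborn epithelium was the second highest of the respiratory chain genes there. Uqcrh, the hinge protein, had the widest promoter peak of these genes in newborn fibers, 2218 bp, and peaks of 2250, 2413 and 1580 bp in the embryonic epithelium, embryonic fiber and newborn epithelium lists. Uqcrc2, a core protein, stood at 5.59%, 5.14%, 13.9% and 3.82% in the order embryonic epithelium, embryonic fibers, newborn epithelium and newborn fibers.

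Complex V makes ATP. Atp5g1, one of the genes for the subunit c of its membrane ring, stood at 1.38% in embryonic epithelium, 0.333% in embryonic fibers, 4.65% in newborn epithelium and 4.64% in newborn fibers. Atp5g2, a second gene for the same subunit, stood at 3.05%, 2.60%, 11.3% and 2.61% in the same order. Atp5b, the catalytic beta subunit, stood at 3.22%, 1.44%, 7.95% and 2.09%, and Atp5pb, a subunit of the stalk, at 2.45%, 0.703%, 11.8% and 7.65%. Atp5l stood lowest of the complex V genes in both embryonic lists, at 18.9% in embryonic epithelium, 11.5% in embryonic fibers, and stood at 29.6% in newborn epithelium, with no peak in newborn fibers. Atp5k, subunit e, moved most between stages in epithelium, from 7.79% at E14.5 to 47.1% at P0.5, and stood at 4.93% and 15.7% in the fiber lists.

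Complex IV holds the isoform pairs, in which a form that most tissues use has a counterpart restricted to muscle, lung, testis or low oxygen. Ndufa4 and Ndufa4l2, which carry complex I symbols, are taken with them, since the Ndufa4 protein is now counted with cytochrome c oxidase. The 7 ubiquitous forms had promoter peaks in 7, 7, 6 and 5 cases in the embryonic epithelium, E14.5 fiber, newborn epithelium and newborn fiber lists, and the 8 restricted forms in 5, 6, 4 and 4, beside 70.2%, 71.1%, 66.9% and 64.6% of all genes. Median rank percent was 4.75%, 3.92%, 10.9% and 6.94% for the ubiquitous forms with a peak, and 10.4%, 17.4%, 22.9% and 28.1% for the restricted forms with a peak. Without the 8 restricted forms, 77, 77, 76 and 74 of 78 respiratory chain genes had a promoter peak, with median rank percents of 5.31%, 3.89%, 11.5% and 7.65%.

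Cox4i2, the lung form that low oxygen induces, stood at 23.3% in embryonic epithelium, 15.3% in embryonic fibers, 47.1% in newborn epithelium and 21.4% in newborn fibers. Cox4i1 stood at 4.75%, 3.74%, 12.3% and 6.94% in the same order, a lower percent in every list. Cox6a1 stood at 5.23%, 2.12%, 17.2% and 2.61%. Its heart and muscle counterpart Cox6a2 had a peak in the E14.5 lists only, at 29.0% and 27.2%. These Cox6a2 peaks were 137 and 374 bp wide, and their summits lay 2000 and 2027 bp upstream of the start, at the edge of the window. Cox7a2 stood at 3.77%, 4.97%, 5.61% and 9.32%, and Cox7a1 at 10.4%, 9.23%, 27.9% and 48.9%. Cox8a stood at 2.45%, 3.92%, 4.65% and 18.2%, while Cox8b had 1 peak, at 71.6% in embryonic fibers, and the testis form Cox8c had none. In these 4 sets the ubiquitous form stood higher in every list where both had a peak.

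The Cox6b pair went both ways. Cox6b2, the testis form, stood at 8.76% in embryonic epithelium and 17.98% in newborn epithelium, against 10.4% and 27.9% for Cox6b1, and only Cox6b2 had a peak in newborn fibers, at 34.7%. In embryonic fibers Cox6b1 stood higher, at 7.27% against 19.5%. Another gene, Fam71e2, overlaps the bases before the Cox6b2 start. Cox7b had peaks at 12.1% in embryonic epithelium and 6.25% in embryonic fibers and none at P0.5, and Cox7b2 had no promoter peak. Ndufa4l2, a gene induced by low oxygen, had peaks at 6.12%, 4.66%, 17.98% and 8.49%, next to 3.87%, 2.1%, 9.54% and 6.94% for Ndufa4, which stood higher in each list. Its peaks were wide at E14.5, with 2532 bp in epithelium and 2496 bp in fibers, and not at P0.5, with 629 and 553 bp. The summits of the Ndufa4l2 peaks lay 1916 to 1944 bp upstream of its start site, so these peaks reached the window without standing at the start.

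**Figure D3:**
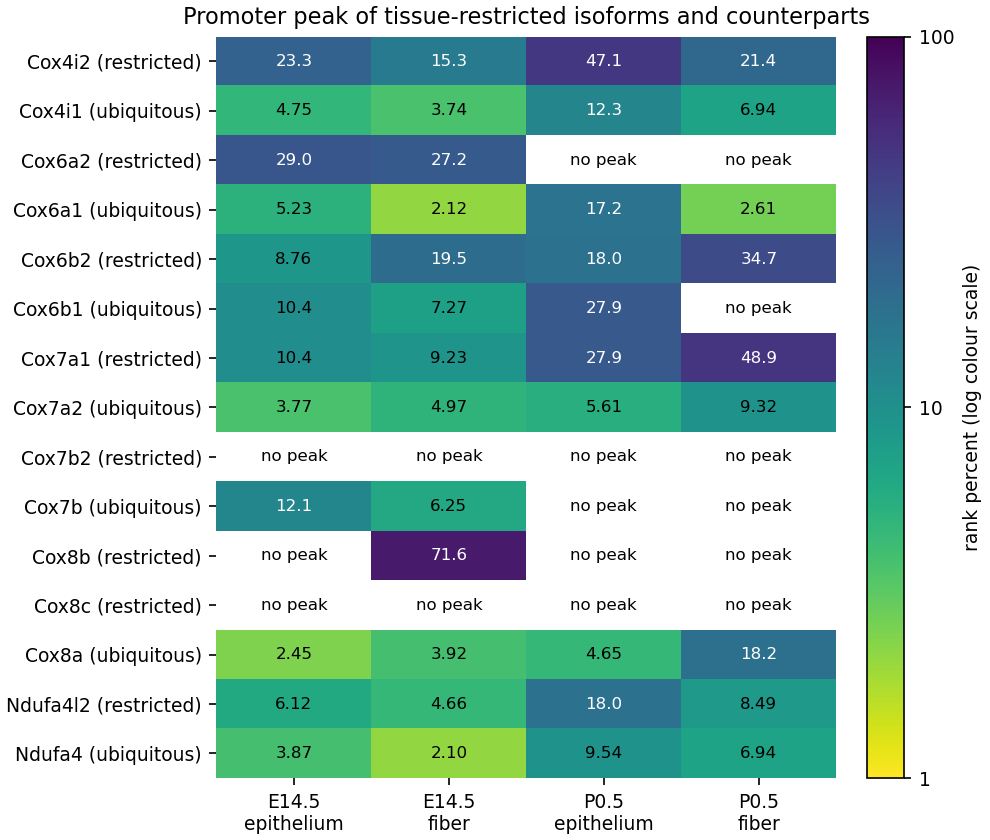
Rank percent of the promoter peak of the tissue-restricted isoforms and their ubiquitous counterparts in the 4 lists. A low percent (light) marks a strong peak on a log colour scale, and cells without a promoter peak read "no peak". Cox7b2 and Cox8c have no peak in any list. The ubiquitous Cox4i1, Cox6a1, Cox7a2, Cox8a and Ndufa4 have a value in every list, and Cox6b1 and Cox7b do not. The restricted Cox4i2, Cox6b2, Cox7a1 and Ndufa4l2 also have a value in every list.

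Each list enters 2 of the 4 comparisons, so these are not independent of each other. Between stages, most genes stood at a higher percent, that is lower in the ranking, at P0.5. In epithelium this held for 74 of 80 genes with a peak in both lists, with a median difference of P0.5 minus E14.5 of 6.83 percentage points (interval 5.39 to 8.23). In fibers it held for 73 of 78, with a median difference of 6.15 points (3.86 to 7.34). All genes moved the same way by less, with medians of 4.18 and 3.61 points. Of all genes with a peak in both lists, 11271 of 13844 in epithelium and 11127 of 13203 in fibers stood at a higher percent at P0.5. A rank percent also depends on the number of weak peaks in a list, and the E14.5 lists are the longer ones. When only the 58592 strongest peaks by p value of each list were ranked, the median difference of the respiratory chain genes was 2.98 points in epithelium and 2.31 in fibers, while that of all genes was 0.00683 and −0.254. In the full lists, the genes of cytosolic ribosomal proteins moved as far as the respiratory chain genes or farther, by 9.51 points in epithelium and 6.15 in fibers, while those of mitochondrial ribosomal proteins moved by 6.75 and 4.94 points, of assembly factors and cytochrome c by 4.15 and 4.28 points, and of glycolysis by 4.14 and 2.11 points. These sets were not recomputed with equal numbers of peaks.

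The median difference was above 0 in each complex. In epithelium the median difference was 6.51 points for complex I, 5.55 for complex II, 7.66 for complex III, 6.61 for complex IV and 8.44 for complex V, beside 4.18 for all genes. In fibers it was 6.72, 3.61, 4.74, 5.24 and 4.79 points, beside 3.61 for all genes. The intervals of complex III held 0, from −1.42 to 15.04 in epithelium and from −1.32 to 17.1 in fibers. These values by complex were not recomputed with equal numbers of peaks. The largest rises in percent in epithelium were those of Atp5k, of Cox4i2 (23.3% to 47.1%) and of Ndufb10, a complex I subunit (6.77% to 29.6%). In fibers they were those of Ndufc2, Cox7a1 and Cox6c, a small subunit of complex IV (9.45% to 48.9%). The newborn fiber peaks of these 3 genes were the 3 with a q value above 0.001, with −log10 q of 1.997 for Ndufc2 and 2.76 for both others, so that none of them is called at the stricter threshold. All 3 share their rank with other peaks of equal fold enrichment, and Ndufc2 lies in the largest such tie, of 13934 peaks (22.1% of the newborn fiber list). Falls in percent were small. The largest in epithelium were those of Uqcrfs1 (2.83% to 1.41%), of Atp5md (5.31% to 3.97%) and of Ndufb9 (6.84% to 5.61%), and in fibers those of Ndufa8 (6.05% to 4.64%), Uqcrc2 (5.14% to 3.82%) and Ndufa6 (1.91% to 0.697%).

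**Figure D4:**
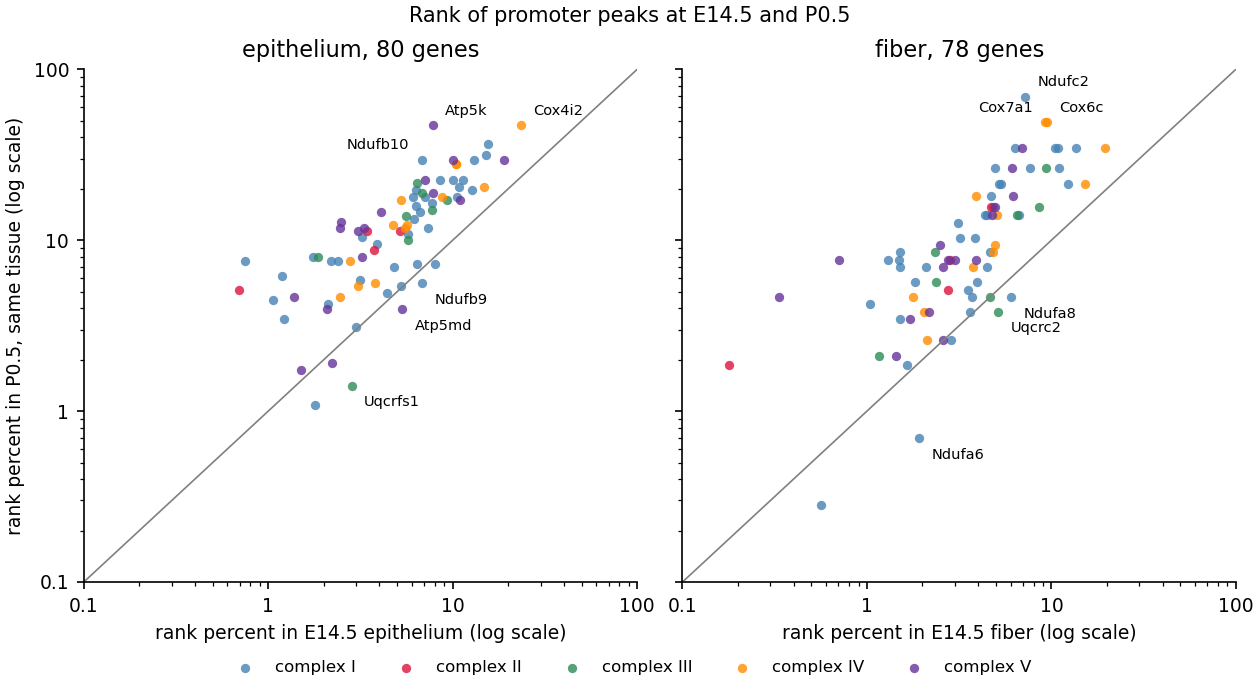
Rank percent of the promoter peak at P0.5 (vertical) against that at E14.5 (horizontal) in epithelium (80 genes) and fibers (78 genes), on log axes, with the line of equal percent and the names of the 3 largest rises and falls. Points above the line stand lower in the P0.5 ranking, 74 genes in epithelium and 73 in fibers.

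Between tissues the differences were small. At E14.5, 62 of 82 genes (75.6%) stood at a lower percent in fibers than in epithelium, against 72.8% of all genes. The median difference of fibers minus epithelium was −1.14 points (−1.75 to −0.702), beside −1.14 points for all genes. With equal numbers of peaks ranked in each list the difference was −0.646 points, and −0.244 points for all genes. The largest fall in percent in fibers was that of Cox4i2, followed by Atp5l (18.9% to 11.5%) and the complex I subunit Ndufs7 (10.1% to 3.51%). The largest rise was that of Cox6b2 (8.76% to 19.5%), followed by Ndufa12 (7.68% to 10.9%) and Cox8a (2.45% to 3.92%). At P0.5 the median difference was −1.59 points with an interval from −3.72 to 1.52, and 45 of 78 genes stood at a lower percent in fibers. Over all genes it was −1.03 points, with 57.5% of genes lower in fibers. When only peaks with a q value under 0.001 were used, the sign of this difference turned, to 4.12 points, and that of all genes turned as well, to 4.48 points. Single genes moved far in both directions at P0.5: Atp5k fell from 47.1% in epithelium to 15.7% in fibers and Ndufb10 from 29.6% to 10.3%, while Ndufc2 rose from 29.6% to 69.2% and Cox6c from 20.5% to 48.9%.

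Peak width, measured from the borders in the lists, followed the list as a whole. The median width of the promoter peaks was 1012 bp in embryonic epithelium, 1320 bp in embryonic fibers, 672.5 bp in newborn epithelium and 486 bp in newborn fibers, and over all genes it was 981, 1249, 705 and 563 bp. At E14.5, 73 of 82 genes had the wider peak in fibers, with a median ratio of fibers to epithelium of 1.27 (all genes 1.23). At P0.5, 16 of 78 did, with a median ratio of 0.763 (all genes 0.838). From E14.5 to P0.5 peaks narrowed at 79 of 80 genes in epithelium, with a median ratio of 0.707 (all genes 0.748), and at 78 of 78 in fibers, with a median ratio of 0.395 (all genes 0.457).

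The widest promoter peak was that of Ndufa13 in embryonic fibers, at 3739 bp (chr8:69901003-69904741). In embryonic epithelium it was 2527 bp wide, in newborn epithelium 839 bp and in newborn fibers 1093 bp. Its summit lay 718 to 808 bp upstream of the Ndufa13 start in the 4 lists. Ndufa11, another complex I subunit, had peaks of 2028, 2846, 1760 and 1482 bp in the order embryonic epithelium, embryonic fibers, newborn epithelium and newborn fibers, and Atp5j, coupling factor 6 of the ATP synthase, 2085, 2211, 1890 and 1426 bp. Atp5g2 had the fourth widest peak in embryonic fibers, 2482 bp, but one of 561 bp in newborn epithelium and of 581 bp in newborn fibers. The peaks of Ndufa11, Atp5j, Atp5g2 and Ndufa13 were wider in both E14.5 lists than in either P0.5 list.

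**Figure D5:**
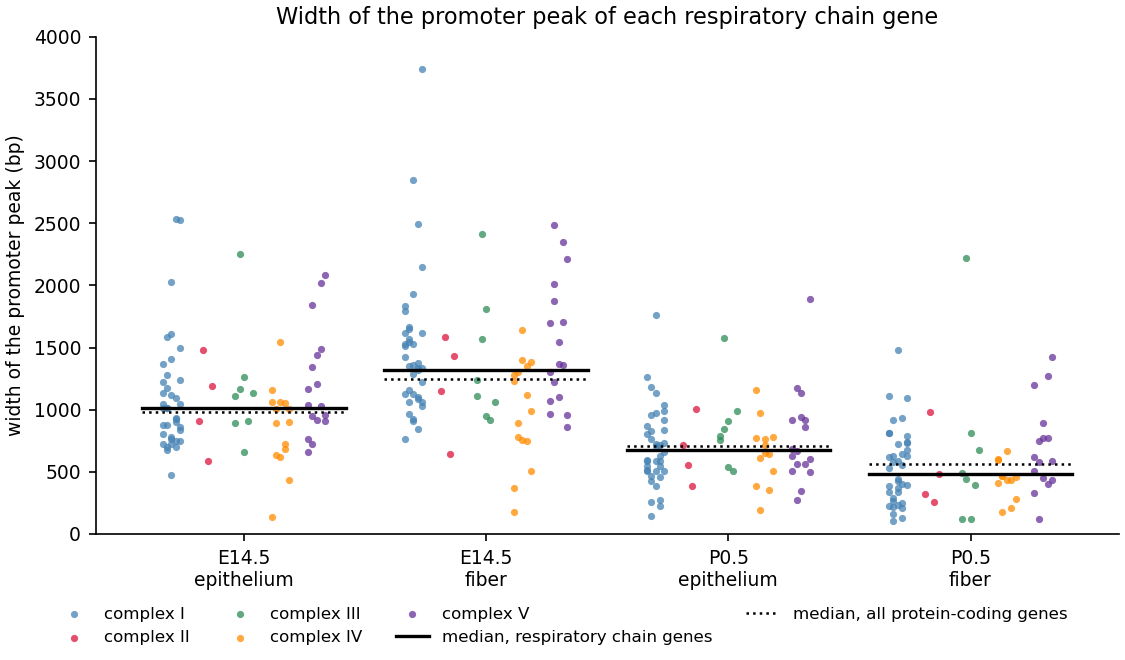
Width in bp of the promoter peak of each respiratory chain gene by list and complex. Points are genes, solid lines the medians of these genes (1012, 1320, 672.5 and 486 bp from left to right) and dotted lines the medians of all protein-coding genes, and the highest point is Ndufa13 in embryonic fibers at 3739 bp.

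Summits stood close to the start sites. The median distance was 46 bp in embryonic epithelium, 52 bp in embryonic fibers, 52.5 bp in newborn epithelium and 57 bp in newborn fibers, against 80, 84, 83 and 113 bp for all genes. Many of these promoters are shared with a neighbour. Another gene, coding or non-coding, starts on the opposite strand within 1 kb at 26 of the 86 genes (30.2%), compared with 11.5% of all genes. The share was 38.5% for the genes of mitochondrial ribosomal proteins and 15.1% for those of cytosolic ribosomal proteins. Atp5j starts 102 bp from Gabpa, the gene of the DNA-binding subunit of GABP, Sdhd 52 bp from Timm8b, which serves import into mitochondria, Sdha 77 bp from Ccdc127 and Uqcrh 199 bp from Lrrc41. All 26 genes had a promoter peak in every list, as did 56, 57, 54 and 52 of the other 60 in the embryonic epithelium, E14.5 fiber, newborn epithelium and newborn fiber lists. Their median rank percent was 4.95%, 3.28%, 9.75% and 7.65%, against 5.93%, 4.66%, 14.2% and 9.32% for the others. All genes showed the same split. Of 2425 genes with such a neighbour, 2344, 2353, 2325 and 2273 had a promoter peak, with medians of 4.09%, 2.98%, 8.34% and 6.31%, against 8.76%, 6.99%, 13.9% and 11.4% for the other genes.

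At such promoters a peak cannot be given to one gene. The summit lay nearest to a start site of another gene, coding or non-coding, in 14 of 82 peaks in embryonic epithelium and 13 of 83 in embryonic fibers. The same held for 12 of 80 in newborn epithelium and 13 of 78 in newborn fibers. Among others, this was the case in every list for Ndufa4 (nearest start Phf14), Ndufa11 (Vmac), Uqcrh (Lrrc41), Sdha (Ccdc127), Sdhd (Timm8b), Ndufb9 (Tatdn1) and Atp5md (Pdcd11), and in 3 lists for Atp5pb (Wdr77).

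Inside the gene bodies, peaks that did not touch the promoter window were fewer than at other genes. There were 21 genes with such a peak in embryonic epithelium (24.4%, against 45.0% of all genes), 29 in embryonic fibers (33.7%, against 50.2%), 11 in newborn epithelium (12.8%, against 33.0%) and 16 in newborn fibers (18.6%, against 38.5%). The genes are short, with a median length of 6975.5 bp compared with 16690.5 bp. Among the 55 genes longer than 5 kb the shares were 30.9%, 43.6%, 18.2% and 23.6%, against 56.0%, 62.7%, 41.7% and 47.7% of all genes longer than 5 kb. Length within this class was not matched. The counts depended on the window and on the list. With a window of 500 bp, 42 of 86 genes had such a peak in embryonic fibers, against 11771 of 21000, and with equal numbers of peaks the E14.5 counts were 12 and 17, against 7208 and 7726 of 21000. With a q value under 0.001, 8 genes had one in newborn fibers, against 4878 of all genes. The share of the respiratory chain genes was below that of all genes in each list under each of these 3 settings.

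Complex II genes were among those with the highest-ranked gene body peaks. Sdhb had 4 gene body peaks in each E14.5 list, 1 in newborn epithelium and 7 in newborn fibers. The highest-ranked one lay at chr4:140964415-140965123 in embryonic fibers, stood at 5.84% and was 709 bp wide. The strongest Sdhb gene body peaks of the other lists, at 12.5% in embryonic epithelium, 29.6% in newborn epithelium and 14.0% in newborn fibers, lay inside these borders. The Sdhc peak near the end of the gene stood at 7.60% in embryonic epithelium (chr1:171129314-171129720), 6.93% in embryonic fibers and 16.5% in newborn epithelium, and none was called in newborn fibers. Sdha had 1 gene body peak in each E14.5 list, at 22.5% in epithelium and 11.2% in fibers.

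The other wide or high-ranked gene body peaks lay at genes of complexes I, IV and V. Ndufa13 had a gene body peak of 2331 bp in embryonic fibers, and its strongest one there stood at 12.3% (chr8:69893763-69895546). Cox4i1 had one of 1466 bp in embryonic fibers (16.2%), 562 bp in embryonic epithelium (11.5%) and 345 bp in newborn epithelium (26.3%), and none in newborn fibers. Atp5d, the delta subunit of the ATP synthase, had one of 1254 bp in embryonic epithelium, 1033 bp in embryonic fibers, 155 bp in newborn epithelium and 838 bp in newborn fibers, and both embryonic ones ran past the end of the gene. Ndufs4, a long gene of 100300 bp, had its strongest one at 12.3% in embryonic epithelium (chr13:114319210-114319478), 25.2% in embryonic fibers and 24.9% in newborn epithelium, at nearly the same position in all 3, and at another position in newborn fibers (69.2%). Ndufs7 had 5, 5, 1 and 4 gene body peaks in the order embryonic epithelium, embryonic fibers, newborn epithelium and newborn fibers, of which the strongest stood at 18.2% in newborn fibers. Cox7b2, which had no promoter peak, had 1 peak of 126 bp in its body in embryonic fibers.

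Genes that act with the respiratory chain were described in the same way. Of 49 genes of assembly factors and cytochrome c, 48 had a promoter peak in all 4 lists, with median rank percents of 5.01%, 4.20%, 8.70% and 8.07% in the order embryonic epithelium, embryonic fibers, newborn epithelium and newborn fibers. Of 16 regulators of mitochondrial genes, which include the NRF1, GABP and PGC-1 factors and the mitochondrial transcription and replication proteins, 15 did, with medians of 3.57%, 2.94%, 7.11% and 4.22%. For the genes of mitochondrial ribosomal proteins the medians were 6.86%, 4.93%, 14.6% and 8.49%, and for those of cytosolic ribosomal proteins 4.72%, 3.26%, 15.8% and 9.32%. Of 18 glycolysis genes 17 had a promoter peak in all 4 lists, with medians of 3.81%, 4.09%, 6.79% and 6.31%. The median of the respiratory chain genes lay between those of the regulators and of the mitochondrial ribosomal proteins in both E14.5 lists and in newborn epithelium, and equalled the latter in newborn fibers.

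The tissue labels were checked against marker genes. Promoter peaks of the epithelium markers Foxe3, Cdh1, Pdgfra and Pax6 were present in all 4 lists, so that their presence does not separate the tissues. Their ranks did not differ between the tissues in a common direction. Foxe3, a factor of the lens epithelium, stood at 4.26% in embryonic epithelium and 7.48% in embryonic fibers, and at 7.95% and 9.32% at P0.5. Pax6, an eye field factor, stood higher in fibers, at 0.479% against 3.73% in epithelium at E14.5 and 6.31% against 6.64% at P0.5. Pdgfra, a growth factor receptor, did so too, at 4.26% against 6.84% and 10.3% against 10.8%. Cdh1, an epithelial cadherin, stood at 19.5% in fibers and 22.5% in epithelium at E14.5, and at 48.9% and 39.5% at P0.5. Of 6 fiber markers, Mip, Lim2, Bfsp1, Bfsp2 and Cryba1 had a promoter peak in all 4 lists and stood higher in fibers at both stages, for example Mip with 2.12% in fibers and 16.0% in epithelium at E14.5, while Crygs had one only in embryonic fibers. Among markers of other cells, the pigment cell gene Tyr, the hemoglobin gene Hbb-bt and the leukocyte gene Ptprc had no promoter peak in any list. Pmel, of pigment cells, had one in all 4 lists, at 4.95%, 7.21%, 15.1% and 34.7% in the order embryonic epithelium, embryonic fibers, newborn epithelium and newborn fibers, and Pecam1, of endothelium, had one in 1 list. No marker of other cells had the summit of its promoter peak within 200 bp of a start site in any list. In newborn epithelium the Pmel summit lay 1688 bp from the start. The part of other cells in the values of the respiratory chain genes was not tested.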

How the data were processed

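Libraries of 4 groups, 2 per group, were measured by ATAC-seq, and the 4 pooled lists of peaks were used. From the submitters' processing notes and the study's methods, the authors used Trim Galore 0.4.1, Bowtie2 2.3.3.1, SAMtools 1.2, Picard 2.1.1 and MACS2 2.1 with mm10, removed mitochondrial and duplicate reads, and called peaks at a q value of 0.05. The deposited fold enrichment is the ratio, made by the authors with MACS2, of the reads of both libraries at the summit to a background. It was used only to rank peaks within a list. Ranks by p value gave the same results as ranks by fold enrichment, and the lists do not say whether the background was local. The deposited −log10 p and q values were made in the same step and served the alternatives. Each list was taken whole, 0 columns were left unassigned, and 0 peaks passed the end of a chromosome. Depth is not in the lists, so that no interval for counting error was made. The ENCODE blacklist was not used here, and 1 marker of other cells is not reported here. Reads of mitochondrially encoded subunits and read counts per library were not analysed here.

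RefSeq curated transcripts gave start sites and gene bodies, over 21 chromosomes. Peaks were assigned by an overlap of 1 bp in a promoter window of 2 kb. Medians carry 95% order-statistic intervals, except that for the 4 genes of complex II the lowest and highest values are given, which cover less. The steps used python 3.11.15, pandas 2.3.3, numpy 2.4.6, scipy 1.17.1 and matplotlib 3.10.9, and placement and ranks were tested on simulated data. With pooled lists no test across replicates could be made. The genes and the lists set beside them were chosen with earlier results of these data known. Genes named are those without a promoter peak in a list, the 5 highest-ranked or widest promoter peaks of a list, the 3 largest rises and falls in a comparison, the 3 widest or highest-ranked gene body peaks, complex II, and the isoform pairs. The 6 alternatives were a q value under 0.001, equal numbers of peaks, a window of 500 bp, the summit in the window, predicted transcripts, and ranks by p value.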

Additional observations from a re-analysis of the deposited data

Results flagged for a closer look

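The width of the promoter peaks of respiratory chain genes differed between tissues in opposite directions at the 2 stages. The median of fibers minus the median of epithelium was 308 bp at E14.5 and −186.5 bp at P0.5. The difference between the stages was not tested, since each group has 1 pooled list. The medians over all protein-coding genes went the same way, from 981 bp in epithelium to 1249 bp in fibers at E14.5 and from 705 bp to 563 bp at P0.5.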

How the results depend on the processing

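Of 117 values recomputed under the alternatives, 105 stayed inside the interval of the main value, or for counts within 1.5 times of it. Another 11 fell outside these limits and 1 changed its sign. Ranking equal numbers of peaks gave median rank percents of 9.60% in embryonic epithelium and 8.79% in embryonic fibers, and 12 and 17 genes with a gene body peak. The median differences were then −0.646 points for fibers minus epithelium at E14.5, 2.98 for P0.5 minus E14.5 in epithelium and 2.31 in fibers. With a q value under 0.001, the median rank percent was 5.42% in embryonic fibers and 15.7% in newborn fibers, 8 genes had a gene body peak in newborn fibers, and P0.5 minus E14.5 was 12.9 points in fibers. Fibers minus epithelium at P0.5 turned from −1.59 to 4.12 points. This threshold keeps 48.9% of the newborn fiber list and 80.5% to 87.9% of the other lists, which by itself changes ranks given as a percent of the list. Windows of 500 bp, summits in the window and predicted transcripts moved no value past these limits. The count of genes with a gene body peak in embryonic fibers still went from 29 to 42 with the 500 bp window. Ranks by p value left all 12 values compared exactly as they were, so this alternative was no separate check. Those 12 values are among the 105. No paired analysis was possible because both libraries of a group were pooled into 1 list, and leaving out a library was not possible for the same reason.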
